A study of Mus musculus with 3 samples.

Results

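The genes described here mark the primitive streak and early mesoderm of the mouse embryo, and were read in mouse embryonic stem cells (mESCs) treated with a MEK inhibitor. The 10 genes were listed by name: the ligands Wnt3 and Wnt8a, the receptor Kdr, the T-box factors T and Tbx6, the homeobox factors Mixl1, Gsc and Evx1, and the basic helix-loop-helix factors Mesp1 and Hand1. They stood on the array with 12 probes and 21 spots, among 20656 named genes and 59305 spots that were not controls.

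The samples were 3 cultures of the J1 line (strain 129S4/SvJae). They were kept without feeders on gelatin, in medium with knockout serum replacement and leukemia inhibitory factor (LIF) at 1000 U/mL. All 3 had received PD0325901 (PD), a compound that blocks the kinase MEK, at 1 µM for 24 h, and they are replicates 1 to 3 of 1 group. The study's methods describe its experiments as independent repeats. The study asked how blocking MEK/ERK signalling changes the self-renewal of mESCs; cells without PD were not analysed here, so every value is the state of PD-treated J1 mESCs and not an effect of PD, and no p-value was computed.

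The primitive streak is the site of the epiblast where cells leave the epithelium and become mesoderm and endoderm. Wnt and Nodal signals induce it, and FGF signals, which act through MEK and ERK, are needed for the mesoderm to form and move away. In mESCs the same genes are read as early signs of exit from the undifferentiated state. LIF and inhibition of MEK both favour self-renewal.

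In PD-treated J1 mESCs most of these genes gave little or no signal over background, with 4 exceptions. Gsc, Wnt8a, Tbx6 and Kdr had a probe that was detected on all 3 arrays, which is 4 of 10 genes (40%) against a background of 72.8% of the named genes. Detected means that the scanner software flagged at least 50% of the spots of a probe on that array as well above background. Kdr had another probe that was detected on no array. Under a weaker flag, for signals that are positive and significant, 8 of the 10 genes were read on all 3 arrays. That is near the 81.2% of named genes under the same flag. T, Mesp1 and Wnt3 lay at the border of detection, and Mixl1, Evx1 and Hand1 were detected on no array. The arrays measured RNA of whole cultures, so fewer cells with a transcript and less of it per cell cannot be told apart.

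Signals are given as the processed signal of the scanner software, in arbitrary units and corrected for background within each array. Spots not flagged well above background reached at most 13.7, 15.6 and 14.2 on replicates 1, 2 and 3, and the lowest spots with the flag were at 10.1, 11.4 and 10.3. The 308 negative control spots had medians of 2.42, 2.75 and 2.48. Replicate 2 stood apart: 16 of its negative control spots were well above background, against 5 and 4 on replicates 1 and 3. Their 95th percentile was 12.7 against 2.74 and 2.82. The highest negative control spot read 533 on replicate 2, and 41.7 and 232 on replicates 1 and 3. The array of replicate 2 was cut here into 48 blocks, and in 6 of them the software had marked 10 or more spots as non-uniform. Such blocks were not counted on replicates 1 and 3. In those 6 blocks lay 1 of the 21 spots of the 10 genes, of the Kdr probe with 10 spots. What part this had in single signals was not tested. A level is the log2 of the signal minus the log2 of that array's 75th percentile over probes, which was a signal of 551, 511 and 527. Signals of different probes also depend on the probe's own sequence, so they were not compared between genes.

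**Figure D1:**
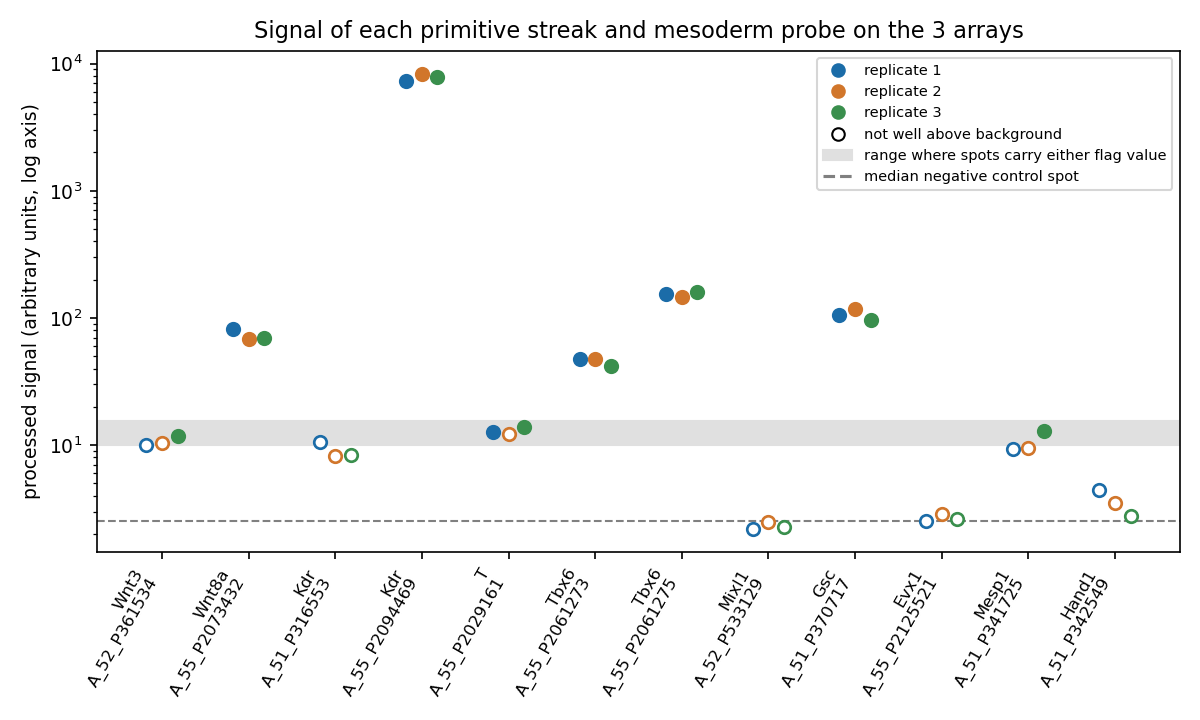
Processed signal (arbitrary units, log axis) of the 12 probes of the 10 genes on the 3 arrays, with filled points for probes well above background, open points for the others, a grey band over the range where spots carry either value of the flag on any array, and a dashed line at the median negative control spot. The signals of 5 probes lay above the band on every array, those of Wnt3, T and Mesp1 at or next to it, and those of Mixl1 and Evx1 on the line.

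The promoters of 4 of the genes are shown first, because they differ in what they hold and belong to genes that the array read differently. Sequences are RefSeq promoters of GRCm38.p6, printed 5′ to 3′ on the strand of the gene, from 250 bases before to 30 bases after the start. Capitals mark the only motifs that were searched: the TCF motif CTTTGAA or CTTTGAT, through which Wnt signals act, the T-box motif AGGTGTGA, and the TATA motif TATAAA, each on both strands. T (chr17:8434173-8434452, plus strand) and Mesp1 (chr7:79793561-79793840, minus strand) were at the border of detection, while Gsc (chr12:104473207-104473486, minus strand) and Tbx6 (chr7:126781233-126781512, plus strand) were detected on every array.
T: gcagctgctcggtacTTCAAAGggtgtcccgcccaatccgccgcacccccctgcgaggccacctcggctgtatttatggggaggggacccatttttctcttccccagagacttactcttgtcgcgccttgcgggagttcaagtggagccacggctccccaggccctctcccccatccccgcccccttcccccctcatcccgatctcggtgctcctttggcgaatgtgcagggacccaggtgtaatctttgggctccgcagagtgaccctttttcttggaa
Mesp1: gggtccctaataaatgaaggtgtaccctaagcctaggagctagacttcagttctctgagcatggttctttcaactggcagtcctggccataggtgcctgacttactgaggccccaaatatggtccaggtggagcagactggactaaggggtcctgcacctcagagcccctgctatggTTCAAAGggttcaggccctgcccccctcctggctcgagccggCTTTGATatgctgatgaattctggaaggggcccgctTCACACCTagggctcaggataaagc
Gsc: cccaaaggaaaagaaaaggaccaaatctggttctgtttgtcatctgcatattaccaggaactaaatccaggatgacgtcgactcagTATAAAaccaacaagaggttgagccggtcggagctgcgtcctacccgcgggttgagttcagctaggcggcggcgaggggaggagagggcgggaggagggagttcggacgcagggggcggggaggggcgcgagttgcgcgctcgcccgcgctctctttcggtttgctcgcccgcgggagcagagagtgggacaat
Tbx6: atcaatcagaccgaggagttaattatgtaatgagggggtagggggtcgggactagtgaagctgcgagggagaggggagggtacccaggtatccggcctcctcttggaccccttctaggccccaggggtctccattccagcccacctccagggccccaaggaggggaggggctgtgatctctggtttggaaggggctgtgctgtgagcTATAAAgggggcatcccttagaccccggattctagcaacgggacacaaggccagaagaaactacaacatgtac
The capitals of T are 1 TCF motif that starts 235 bases before the start. Mesp1 held 2 TCF motifs, at 73 and 31 bases before the start, and a T-box motif 5 bases after it. Gsc held a TATA motif 164 bases before the start, and Tbx6 held one 43 bases before it. None of the motifs overlapped. The other promoters at hand, of Evx1, Wnt3 and Kdr, held none of these motifs, and Kdr is among the detected genes. A link between motif and detection was not tested.

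Wnt3 is the ligand without which no primitive streak forms. Its probe gave signals of 10.1, 10.4 and 11.8, a mean of 10.8 ± 0.872 (SD, n = 3), and was detected on replicate 3 alone. The 3 signals lie close together, with replicates 1 and 3 in the range where spots carry either value of the flag and replicate 2 under it.

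Wnt8a is a ligand made by the posterior epiblast and the early streak. Its signals were 81.6, 68.4 and 69.3 (mean 73.1 ± 7.35, SD, n = 3), and all 3 were well above background. On the log2 scale its levels were -2.75, -2.90 and -2.93, with replicate 1 the highest and the other two 0.03 apart.

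The machinery that releases, receives and answers Wnt ligands was detected almost throughout. Of 23 such genes, 22 (95.7%) had a probe detected on all 3 arrays, beside 72.8% of all named genes. Among the 22 were Porcn, which Wnt ligands need for their lipid modification (5485 ± 209, SD, n = 3), and the nuclear factors Tcf7l1 (1568 ± 35.7) and Lef1 (2147 ± 196). Sp5, a direct target of the pathway, read 85.5 ± 4.08. Both probes of Axin2, a target that also damps the pathway, were detected, at 98.2 ± 9.19 and 22.7 ± 4.69. Dkk1, a secreted inhibitor, was the exception, with signals of 16.0, 16.5 and 7.61 and detection on replicates 1 and 2. Of the paralogues of the ligands, neither Wnt3a (3.02, 24.6 and 3.06) nor Wnt8b was detected on all 3 arrays.

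T (Brachyury), the T-box factor of the nascent mesoderm and notochord, gave signals of 12.8, 12.2 and 14.0. Their mean was 13.0 ± 0.919 (SD, n = 3), and replicates 1 and 3 were detected while replicate 2 was not. The 3 values lay within the range where spots carry either value of the flag, and above 98.4%, 94.8% and 98.7% of the negative control spots. The error that the software gave for the spot left the signal at 4.50, 3.96 and 4.66 times that error.

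Tbx6, the T-box factor of the paraxial mesoderm, had 2 probes of 1 spot each. The first, A_55_P2061273, gave 47.7, 47.4 and 42.0 (mean 45.7 ± 3.23, SD, n = 3), and the second, A_55_P2061275, gave 155, 146 and 159 (mean 153 ± 6.47). Every signal was well above background, so both probes read the gene as detected. The second read 3.25, 3.08 and 3.78 times the first on the 3 arrays, a difference of 1.75 ± 0.15 log2 units (SD, n = 3).

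Among the 8 relatives of T and Tbx6 that were listed, Eomes, a T-box factor that acts earlier in the streak, was detected by both probes (543 ± 56.4 and 104 ± 9.48, SD, n = 3). Tbx3, which mESCs are known to use in self-renewal, read 10713 ± 197. Tbx1 and Tbx4 were detected too, while Tbx2, Tbx5, Tbr1 and Tbx20 were not.

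Mixl1, a homeobox factor of the streak that directs mesoderm and endoderm, gave 2.18, 2.47 and 2.29 (mean 2.31 ± 0.147, SD, n = 3). These signals lay among those of the negative control spots, of which 23.1%, 21.8% and 29.9% were lower on the 3 arrays. Evx1, a homeobox factor of the posterior streak, gave 2.55, 2.88 and 2.65 (mean 2.69 ± 0.171), with 65.9%, 64.0% and 67.2% of the negative controls lower. Neither probe was well above background on any array, and neither signal was significantly above 0 by the software's own weaker flag. On every array the signal was 0.997 times the software's own error for Mixl1 and 0.994 times for Evx1. Their SDs and their ranks among the negative controls therefore describe values at the floor and not amounts of transcript.

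Gsc, a homeobox factor of the anterior streak and the organizer, was read at 106, 117 and 95.9 on the 3 arrays. The mean was 106 ± 10.5 (SD, n = 3), and every signal was well above background. Its levels of -2.37, -2.13 and -2.46 spanned 0.33 log2 units, the widest of the 5 probes detected on all 3 arrays. Gsc2, its relative, was detected as well (38.0 ± 1.48), and Evx2, the relative of Evx1, was detected on replicate 2 alone (2.58, 18.2 and 2.58).

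Mesp1, which marks the first mesoderm and the precursors of the heart, gave 9.40, 9.58 and 12.8. The mean was 10.6 ± 1.92 (SD, n = 3), and replicate 3 alone was detected, while the other two lay under the lowest spot with the flag. Its neighbour and relative Mesp2 was detected on all 3 arrays at 65.2, 60.6 and 57.7 (mean 61.2 ± 3.79).

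Hand1, a factor of the extraembryonic mesoderm, the heart and the trophoblast, gave 4.42, 3.49 and 2.76 (mean 3.56 ± 0.833, SD, n = 3). None of the 3 was well above background, yet all 3 were above 0 by the weaker flag, and 95.5%, 92.2% and 91.2% of the negative controls were lower. Its relative Hand2 was also not detected (8.59 ± 1.34).

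Kdr (Flk1), the main receptor for VEGF and a marker of mesoderm that goes on to form vessels and blood, was read in opposite ways by its 2 probes. Probe A_55_P2094469, with 1 spot, gave signals of 7313, 8348 and 7862, a mean of 7841 ± 518 (SD, n = 3), or levels of 3.73, 4.03 and 3.90. The signals lay far above background on every array and spanned 0.30 log2 units.

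Probe A_51_P316553, with 10 spots, averaged 10.7, 8.17 and 8.36 over its spots, a mean of 9.06 ± 1.38 (SD, n = 3). Its spots ranged from 5.51 to 23.4 on replicate 1, from 3.94 to 12.9 on replicate 2 and from 3.40 to 14.0 on replicate 3. The flag for well above background was set for 4, 2 and 1 of the 10 spots, which is under 50% on each array, so this probe was not detected. No spot of either probe was saturated or marked as an outlier.

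Since the second probe was not well above background, its signal sets only a rough bound on the difference. The denominator was the higher of its own signal and the lowest spot with the flag on each array. The processed signal of the first probe was 686, 731 and 766 times that denominator on replicates 1, 2 and 3. The mean of these ratios was 9.51 log2 units. Some spots without the flag were brighter than the lowest spot with it, so the ratios are not strict lower limits. After normexp, a background correction whose offset of 50 raises dim signals, the difference was 6.77 log2 units. Tbx6 and Kdr were the 2 members with several probes, and Kdr alone had 1 probe detected and the other not, as did 17.8% of the named genes with several probes. The size of the Kdr gap was rarer. From the signals as read it was 9.77 log2 units between the brightest and the dimmest probe. A gap at least that large was found in 69 of the 5474 named genes with several probes (1.26%), whose median gap was 2.25. Both Kdr probes carry the same transcript accession in the files, and where each lies in the transcript was not given in the sources used here. Counting a gene as detected only where every probe was detected left 3 of 10 genes, against 68.0% of the named genes.

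**Figure D2:**
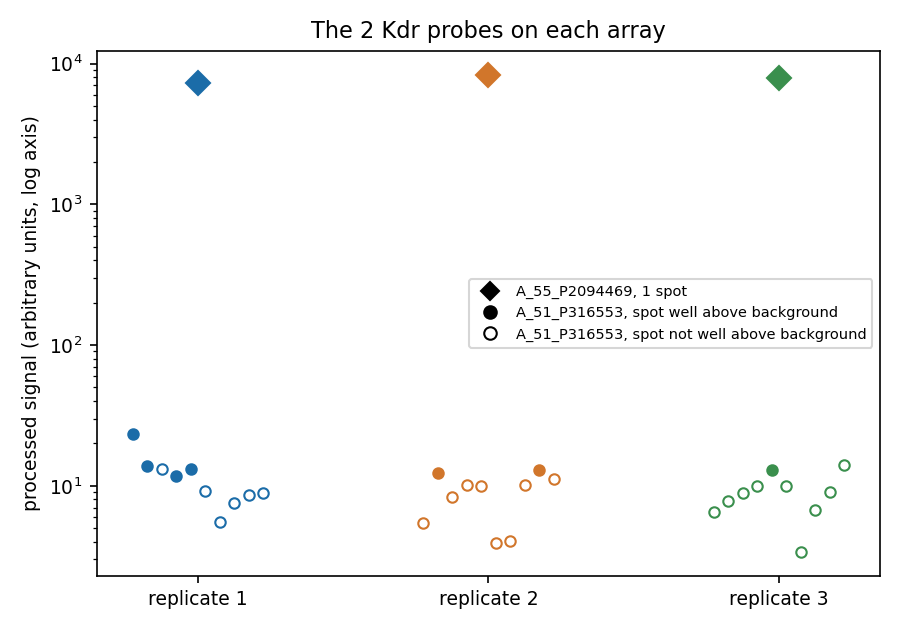
Processed signal (arbitrary units, log axis) of the 2 Kdr probes on each array, with a diamond for the probe with 1 spot and circles for the 10 spots of the other, filled where a spot was well above background. The diamonds lie at 7313, 8348 and 7862, and no circle lies above 23.4.

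Of the 9 VEGF ligands and receptors, 7 (77.8%) were detected, which is near the 72.8% of all named genes. Among the 7 were Vegfc (3806 ± 152, SD, n = 3) and Flt1, the receptor closest to Kdr (166, 123 and 147). Flt4, the third receptor of the family, was detected on replicate 3 alone (9.61, 5.87 and 75.8), and the coreceptor Nrp1 on none. Of 10 markers of endothelium and blood, 7 (70%) were detected, beside 72.8% of all named genes. These were Pecam1, which mESCs also carry (327 ± 8.18), Tek (185 ± 6.30), Cd34, Gata1 and the globin Hba-a1 (46.7 ± 2.33). Tie1 and Ptprc were the others, at low signals (14.7 ± 4.07 and 13.7 ± 1.58). The endothelial cadherin Cdh5 (4.08 ± 1.68), the sialomucin Emcn and another globin, Hbb-bt, were detected on no array. Whether cells of another kind had a part in the Kdr signal was not tested.

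Counted by probe, 5 of 12 (41.7%) were detected on all 3 arrays against 72.4% of the named probes. Another 3, those of T, Mesp1 and Wnt3, were detected on 1 or 2 arrays, a state that 5.12% of the named probes shared, and 4 were detected on none. The count turned on the flag. Under the software's weaker flag, which asks only that a signal be positive and significant against the background, 8 of the 10 genes were read on all 3 arrays, all but Mixl1 and Evx1, while the share of named genes rose to 81.2%. With detection on at least 2 arrays the count was 5 genes, T being the added one, beside 74.6% of the named genes. Without replicate 2 it was also 5 genes with T added, beside 73.8%.

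The replicates lay close together for the probes that were detected. The SD over the 3 arrays ranged from 0.05 log2 units for the second Tbx6 probe to 0.17 for Gsc, with a median of 0.109, beside 0.090 for all probes detected on all 3 arrays. With the detected probes ranked by level and cut into 4 groups of equal size, that median SD was 0.187 in the dimmest group and 0.106, 0.071 and 0.058 in the next ones. The first Tbx6 probe lay in the dimmest group, Gsc, Wnt8a and the second Tbx6 probe in the next, and the detected Kdr probe in the brightest. The SDs of Gsc (0.17 log2 units) and of that Kdr probe (0.15) were above the medians of their groups. Those of Wnt8a and of both Tbx6 probes were below. None of the 5 probes spanned more than 1 log2 unit, as 1.85% of all detected probes did.

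The array with the highest level was not the same for the 5 probes. Replicate 2 was the highest for Gsc, Kdr and the first Tbx6 probe, replicate 1 for Wnt8a and replicate 3 for the second Tbx6 probe. The replicates have no order, and with 3 arrays the likeness of such patterns was not measured.

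**Figure D3:**
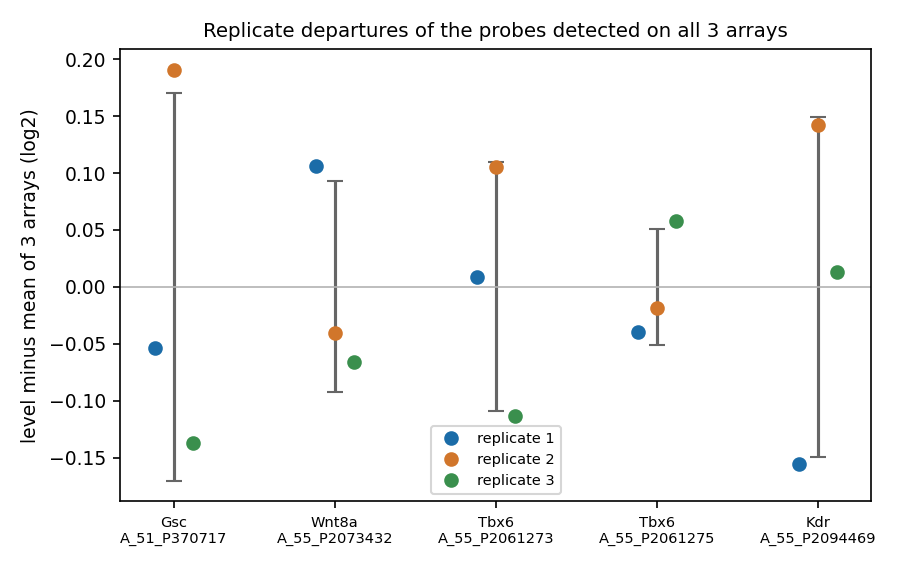
Level on each array minus the mean of the 3 arrays (log2 units) for the 5 probes detected on all 3 arrays, with grey bars for ± 1 SD (n = 3). All points lie within 0.20 log2 units of 0, and no array is the highest for every probe.

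The genes were read beside lists of related genes. The other primitive streak and mesendoderm genes were detected in 16 of 20 cases (80%), which is near the background, and the 4 not detected were Cer1, Cdx2, Cdx4 and Msgn1. Nodal, the ligand that induces the streak, read 8966 ± 152 (SD, n = 3), and its feedback inhibitors Lefty1 and Lefty2 read 12120 ± 270 and 5398 ± 332. These genes are also known to be active in undifferentiated mESCs. The paralogues of the 10 genes were detected in 7 of 16 cases (43.8%), close to the share of the genes themselves.

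All 12 markers of pluripotent cells were detected, among them Pou5f1 (11265, 16872 and 10239), Sox2 (6453, 4835 and 6827) and Nanog (695, 690 and 689). The label of the samples as embryonic stem cells thus matched its markers on every array. Fibroblast markers, which feeder cells would carry, were detected in 5 of 10 cases (50%), beside 72.8% of all named genes. Col1a1 (225 ± 6.77, SD, n = 3), Col1a2 (433 ± 76.8), Dcn (22.2 ± 2.04), Thy1 (624 ± 14.7) and Pdgfrb (92.1 ± 9.09) were detected on all 3 arrays. Col3a1 was detected on replicate 3 alone, and Col5a2, Lum, Postn and Fap on none. Whether feeder cells or other fibroblasts had a part in any signal was not tested.

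**Figure D4:**
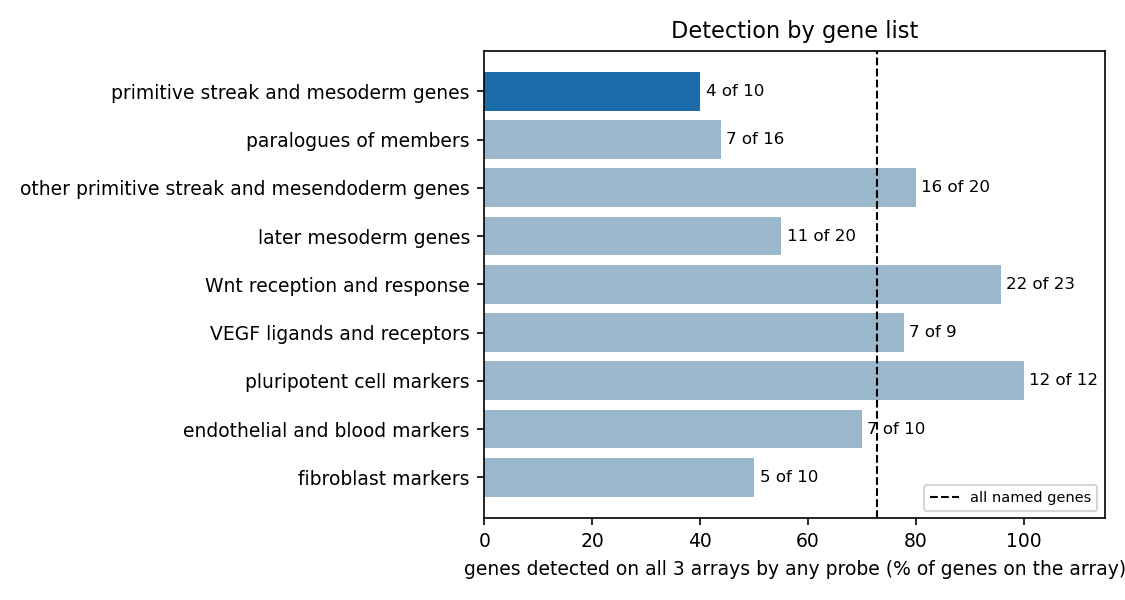
Share of the genes of each list (percent of the list's genes on the array) that had a probe detected on all 3 arrays, with counts beside the bars and a dashed line at 72.8% for all named genes. The primitive streak and mesoderm genes stand at 40%, the lowest bar, and the pluripotent cell markers at 100%.

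The genes next to them on the chromosome were read by the same rule. Of the 20 nearest protein-coding genes, 1 on each side of each member, 17 (85%) had a probe detected on all 3 arrays, beside 72.8% of all named genes. Hand1, at 3.56, stands between Sap30l and Larp1, which were both detected (15941 ± 588 and 28225 ± 916, SD, n = 3). Mixl1 stands between Lin9 (1912 ± 61.5) and Acbd3 (2032 ± 109), and Kdr stands next to the receptor Kit (4314 ± 167). The 3 neighbours not detected were T2 beside T, Serpina3n beside Gsc and Hoxa13 beside Evx1.

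For 7 of the genes, T, Gsc, Mesp1, Evx1, Wnt3, Tbx6 and Kdr, a promoter of 300 bases was at hand, from 250 bases before to 50 bases after the start, among 32851 promoters of that length. CpG pairs, the sites of DNA methylation, were counted over the number that the content of C and G gives by chance. The ratio was 0.934 for Gsc, 0.744 for Wnt3, 0.710 for Evx1, 0.689 for Kdr and 0.607 for T, all above the median of 0.384 over all promoters. Tbx6, at 0.286, and Mesp1, at 0.174, were below it. Detected and undetected genes thus stood on both sides of the median. The median content of G and C was 60.3% in the 7 promoters and 52.7% in all.

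**Figure D5:**
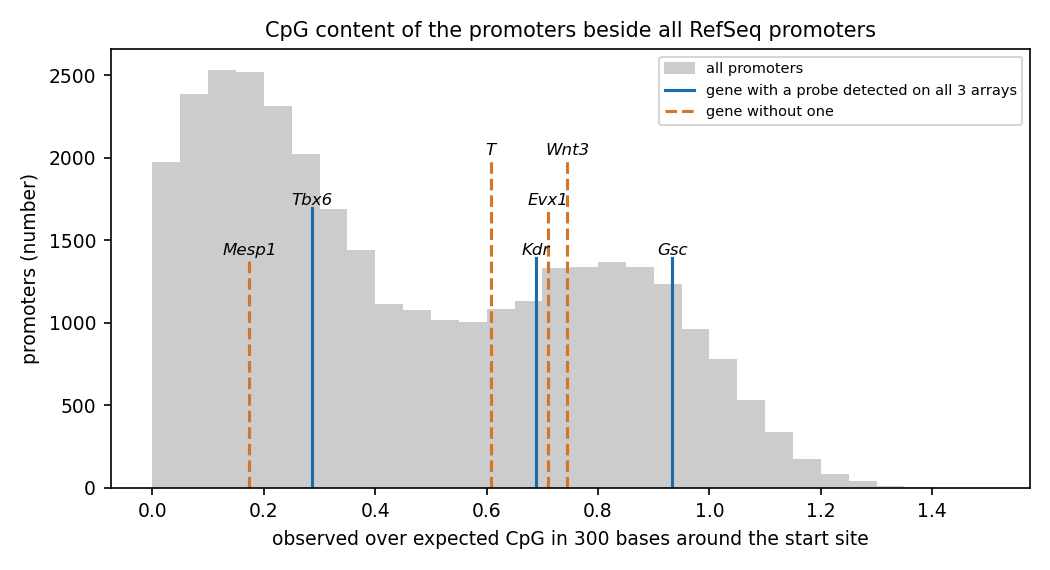
Number of RefSeq promoters by their ratio of observed to expected CpG in 300 bases around the start, in grey, with a line for each of the 7 genes, solid blue where the gene had a probe detected on all 3 arrays and dashed orange where it had none. Mesp1 and Tbx6 stand in the low mode and the other 5 genes above 0.6.

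The motifs in capitals were read against all promoters. The TCF motif was held by 8.65% of them, the T-box motif by 1.28% and the TATA motif by 13.6%. The TCF motif was in the promoters of T and Mesp1, the T-box motif in that of Mesp1, and the TATA motif in those of Gsc and Tbx6, while those of Evx1, Wnt3 and Kdr held none of these letters. A match describes the sequence and not binding.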

How the data were processed

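Total RNA of 3 PD-treated cultures was hybridised in 1 colour to Agilent mouse arrays, 1 array per sample. Per the file headers, the deposited spot intensities are processed signals of Agilent Feature Extraction 10.7.3.1 (10.7 in the submitters' processing notes), corrected for background and trends within each array and not normalized between arrays. The authors also deposited a log2 value per probe and sample, whose scale was not stated, used as an alternative. Depth has no count here, and the number of arrays limits the precision.

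Signals were averaged as log2 over the spots of a probe without outlier flags and scaled to the 75th percentile of 55681 probes. Gene names came from matching accessions (versions removed) to RefSeq genes of GRCm38.p6, which named 27229 probes. All 10 genes and all their probes are described, and from the other lists the counts, the paralogues and partners of members and the minority genes. The members and lists were chosen with earlier results of these data known. With 1 group no test was made. Python 3.11.15, pandas 2.3.3 and, for quantile and normexp normalization, limma 3.58.1 in R 4.3.3 were used, and the computations were tested on simulated data. Normexp, with an offset of 50, started from median spot signals. Promoters came from RefSeq (GRCm38.p6), and the array grid refers to mm9.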

Additional observations from a re-analysis of the deposited data

How the results depend on the processing

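The count of detected genes depended on the flag: with positive and significant signals it was 8 genes and 10 probes. With the brightest probe of a gene it was 4, with every probe 3 and with at least 2 arrays 5 genes and 6 probes. Leaving out a replicate gave 4 to 5 genes and 5 to 6 probes, the added gene being T without replicate 2. The median SD of the detected probes ranged from 0.064 (normexp) to 0.109 log2 units under the other normalizations and the deposited table, from 0.092 to 0.104 with a replicate left out, and was 0.143 with all 12 probes. No probe spanned more than 1 log2 unit under any of these settings, nor with no filter on dim probes, an alternative added after seeing the data. Leaving out a replicate cannot widen the span of a probe, so those settings were no check of it. Levels of all 12 probes moved by less than their SD under quantile normalization and with the deposited table. Leaving out a replicate cannot move such a mean by as much as its SD, so that setting was no check of the levels. The levels moved by a common shift of the scale under the median (3.74 for the median probe) and under the percentile over detected probes (-1.92). Under normexp the median probe moved by 1.22, and dim probes moved more than bright ones: Mixl1 went from -7.84 to -3.30, T from -5.35 to -3.04, Gsc from -2.32 to -1.80 and the detected Kdr probe from 3.89 to 3.70. The difference between the Kdr probes, recomputed after seeing the data, was 9.51 log2 units as a rough bound, 6.77 after normexp and 9.65 to 9.94 otherwise. No paired analysis was possible because 1 group leaves nothing to pair. Spots with signals up to 15.6 carried either value of the flag, so these arrays do not settle the detection of T, Mesp1 and Wnt3.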

Other observations

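Genes of later mesoderm were detected in 11 of 20 cases (55%), beside 72.8% of all named genes. Tcf15, a factor of the paraxial mesoderm that is also known from mESCs leaving the undifferentiated state, read 11488, 9357 and 10916 (mean 10587 ± 1103, SD, n = 3). Of the factors that set up vessels and blood, Etv2 was detected by both probes (284 ± 18.1 and 116 ± 7.99), as were Tal1 (49.4 ± 5.76), Lmo2 (142 ± 0.578) and Gata1 (68.4 ± 11.7). Of the factors of heart and limb, Nkx2-5 was detected (63.0 ± 2.28), while Isl1, Tbx5, Hand2 and Mef2c were not. Foxf1, Osr1, Foxc1, Foxc2 and Myf5 were not detected on all 3 arrays either.

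Kdr was not alone in having probes that disagreed. Bmp4, a ligand that patterns the mesoderm, read 2.61, 2.93 and 2.73 with one probe and 1792, 1627 and 1649 with another. Foxa2, Fgf8, Runx1, Pax3, Cd34 and Nrp2 also had a probe detected on all 3 arrays and another that was not. A probe of Pax3 read 282 on replicate 2 and 46.1 and 43.3 on replicates 1 and 3. The cause of this difference was not tested.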
